A study of Mus musculus with 18 samples.

Results

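Wild-type mouse liver was sequenced 12 months after a single dose of diethylnitrosamine (DEN) and set against untreated liver of the same genotype label. The comparison used 9 of the 18 libraries of the series, 6 labelled DEN-treated wild type (DEN WT 1 to 6) and 3 labelled untreated wild type (untreated WT 1 to 3). The DEN mice were 14 days old when they received 20 mg/kg into the peritoneum, and nontumour liver was collected 12 months afterwards. The untreated mice were 12 months old at harvest, so the DEN group was about 14 days older, and age and DEN cannot be told apart over that gap. All mice were C57BL/6 on regular chow, per the labels, and the wild types are described as littermates of mice that lack Ftcd in the liver only (LKO). For contrast the series holds untreated LKO liver (3 libraries) and nontumour LKO liver after the same DEN schedule (3), and tumours of DEN-treated LKO mice (3) entered the fit of all 18 libraries. Values are TPM, transcript abundances corrected for gene length and scaled to 1 total per library. TPM hold no record of sequencing depth, which is therefore unknown. A gene was tested where 3 or more of the 9 libraries reached 1 TPM, which kept 11989 of the 58126 in the table, and the test was made on log2(TPM + 1). Differences are given on that scale as DEN WT minus untreated WT with a standard error, and the added 1 shrinks those of genes near or under 1 TPM. The labels do not state whether each replicate is its own animal, so the p-values cover the spread between these libraries and nothing wider.

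DEN is a procarcinogen that hepatocytes convert to an ethylating agent, chiefly through the cytochrome P450 Cyp2e1. Given to infant mice, whose hepatocytes still divide, it leaves mutations that grow into foci and tumours over the following months. Genes of the fetal liver that are silent in the adult, such as Afp, H19 and Igf2, are often switched on again in such foci. Kupffer cells, the macrophages of the liver, clear damaged cells and release cytokines in this model.

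Hepatocyte transcripts were abundant in all 9 libraries, with Alb between 9963 and 59439 TPM and Hnf4a, a transcription factor that defines hepatocytes, between 29.6 and 188 TPM. The pancreas marker Prss2 was listed at 0 in all 9 libraries, and Cpa1 was listed at 0 in 8 and reached 0.12 TPM at most. Cela1, also counted as a pancreas marker, was present throughout. It was 7.54 to 36.4 TPM in DEN WT and 10.9 to 49.5 TPM in untreated WT, and its source was not tested. The muscle gene Ckm reached 29.2 TPM in 1 DEN WT library and was listed at 0 in 6 libraries. Ftcd, the gene deleted in the LKO mice, lay at 61.17 to 106.1 TPM in 6 of the 9 libraries. It was 2.36 TPM in DEN WT 1, 2.5 TPM in DEN WT 2 and 1.77 TPM in untreated WT 3, against 0.1 to 3.16 TPM in the libraries labelled LKO, so these 3 libraries go against their label. They are kept as labelled, and values without them are given beside several gene groups. All 9 libraries carried Xist, and their Y-linked genes summed to at most 0.13 TPM, so the comparison is within XX mice. Mitochondrially encoded genes took 4.39% to 38.8% of TPM in DEN WT and 4.24% to 23.2% in untreated WT, with DEN WT 1 and untreated WT 3 the highest of their groups. The means were 11.96% ± 13.3 and 12.5% ± 9.69 (SD, n = 6 and 3; p = 0.881 by a 2-sided exact permutation test, whose smallest possible value with 6 and 3 libraries is 0.0238).

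No gene passed the threshold between DEN WT and untreated WT (0% of 11989 genes at an adjusted p under 0.05; limma, Benjamini-Hochberg). The smallest adjusted p rounded to 1. At an unadjusted p under 0.05 there were 100 genes, 0.834% of those tested, 68 of them higher in DEN WT (0.567%) and 32 lower (0.267%). Random labels would put a fraction of about 0.05 of the genes there on average. The median log2 difference over all genes was 0.001, and its sign was positive in 50.3% and negative in 49.7% of genes. The median standard error was 0.43, so a typical gene would have needed a large difference to stand out. The 6 and 3 libraries did not overlap in 70 genes (0.584%), 46 with all DEN WT libraries above (0.384%) and 24 with all below (0.2%). Random labels would separate a gene in this way with a probability of 0.0238, and the share seen was smaller than that. A lack of overlap is therefore given below as a description and does not by itself mark a gene out. The filter favours genes that are on in DEN WT, which has more libraries: 260 genes reached 1 TPM in DEN WT alone and 2 in untreated WT alone, and 21 of the 46 higher non-overlapping genes belong to the former. The levels and differences described below for these 2 groups did not pass the test.

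**Figure D1:**
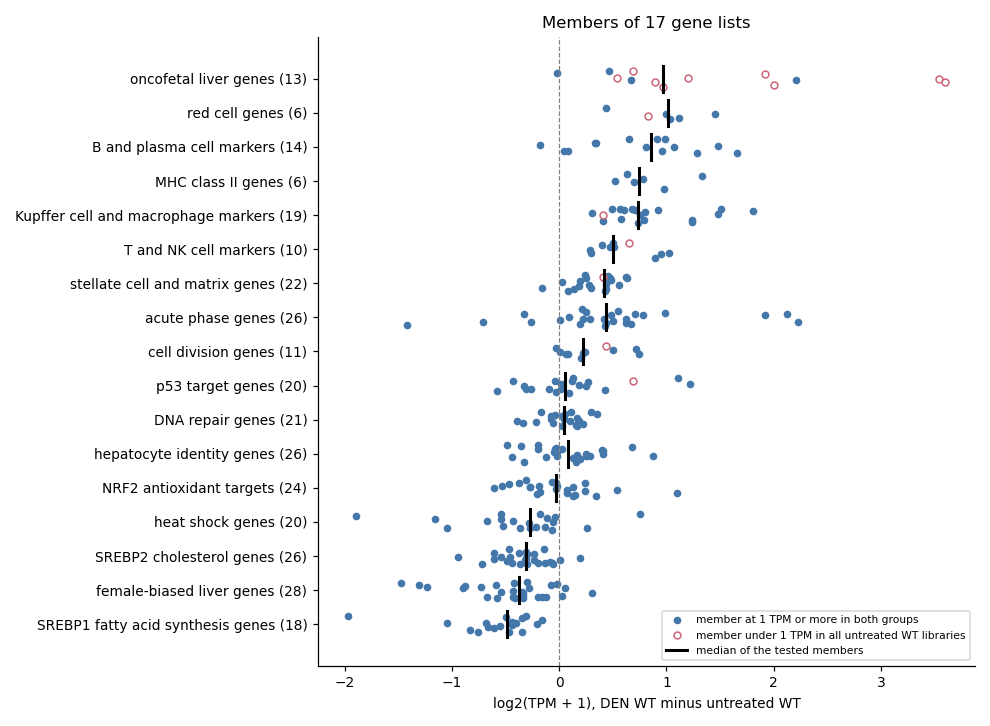
Each point is a tested gene of the list named on the vertical axis (number of tested members in brackets), and the horizontal axis gives log2(TPM + 1) in DEN WT (n = 6) minus untreated WT (n = 3). Black bars are list medians. Open points are genes under 1 TPM in all untreated WT libraries, which could enter the test only through DEN WT. The oncofetal list reached a median of 0.97 with 9 open points, and the 18 genes of fatty acid synthesis lay below 0.

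Several genes of the fetal liver and of liver tumours lay above the controls in DEN WT, unevenly between libraries. H19, Tff3, Akr1c18, Igf2, Afp and Gpc3 stayed under 1 TPM in all 3 controls and entered the test through DEN WT alone, so their values are given as a description, with no p-value. H19 (ENSMUSG00000000031, mm10 chromosome 7, 142575529 to 142578143, minus strand), an imprinted noncoding RNA that the adult liver silences, ranged from 0.68 to 85.05 TPM in DEN WT with a median of 13.4. It was 0.25, 0.18 and 0.1 TPM in untreated WT 1 to 3. Every DEN WT library lay above every untreated one, with DEN WT 4 and 6 highest and DEN WT 5 only just above the controls. The log2 difference was 3.54 ± 1.02, and it lay between 3.01 and 4.15 when any 1 library was left out. That range does not test how stable the difference is, because the filter kept H19 through its DEN WT levels. Tff3 (chromosome 17, 31125306 to 31129646, minus strand), a trefoil peptide of mucus-secreting epithelia that mouse liver tumours can express, ranged from 0.79 to 55.09 TPM in DEN WT with a median of 14.9. It was listed at 0, 0.25 and 0 TPM in untreated WT. Again DEN WT 4 and 6 were highest and DEN WT 5 lowest, and the difference was 3.60 ± 1.00.

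Akr1c18 (chromosome 13, 4132615 to 4150654, minus strand), a hydroxysteroid dehydrogenase that inactivates progesterone, ranged from 0.53 to 31.62 TPM in DEN WT with a median of 3.02, against 0.11, 0.08 and 0.18 TPM in untreated WT. The top library, DEN WT 4, stood far above the others, and the difference of 2.00 ± 0.79 became 1.43 without it. Ly6d, a surface protein anchored in the membrane by a lipid, had a median of 12.3 TPM in DEN WT (1.52 to 64.69) and 3.51, 0.73 and 1.76 TPM in untreated WT. Its groups overlapped through DEN WT 1 alone, and the difference was 2.21 ± 0.84 (unadjusted p = 0.0236).

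Igf2, the fetal growth factor whose gene neighbours H19 and is expressed from the opposite parental copy, followed another pattern. It was 46.85 TPM in DEN WT 4 and 50.09 TPM in DEN WT 6 but between 0.38 and 1.4 TPM in the other 4, against 0.39, 0.56 and 0.4 TPM in untreated WT. Igf2 was thus at 1.4 TPM or less in 4 of the 6 DEN WT libraries, and the mean difference of 1.92 ± 1.20 rests on 2 libraries. H19 exceeded all controls in those 4 libraries as well, at 0.68 to 20.25 TPM. Afp, the fetal counterpart of albumin, was 30.43 TPM in DEN WT 4 and 0.16 to 2.33 TPM elsewhere in DEN WT, against 0.09 to 0.58 TPM in untreated WT (1.20 ± 0.85, and 0.53 without DEN WT 4). Gpc3, a cell surface proteoglycan used as a marker of liver cancer, was likewise highest in DEN WT 4 at 7.44 TPM and lay between 0.15 and 1.25 TPM in the rest, against 0 to 0.52 TPM in untreated WT.

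**Figure D2:**
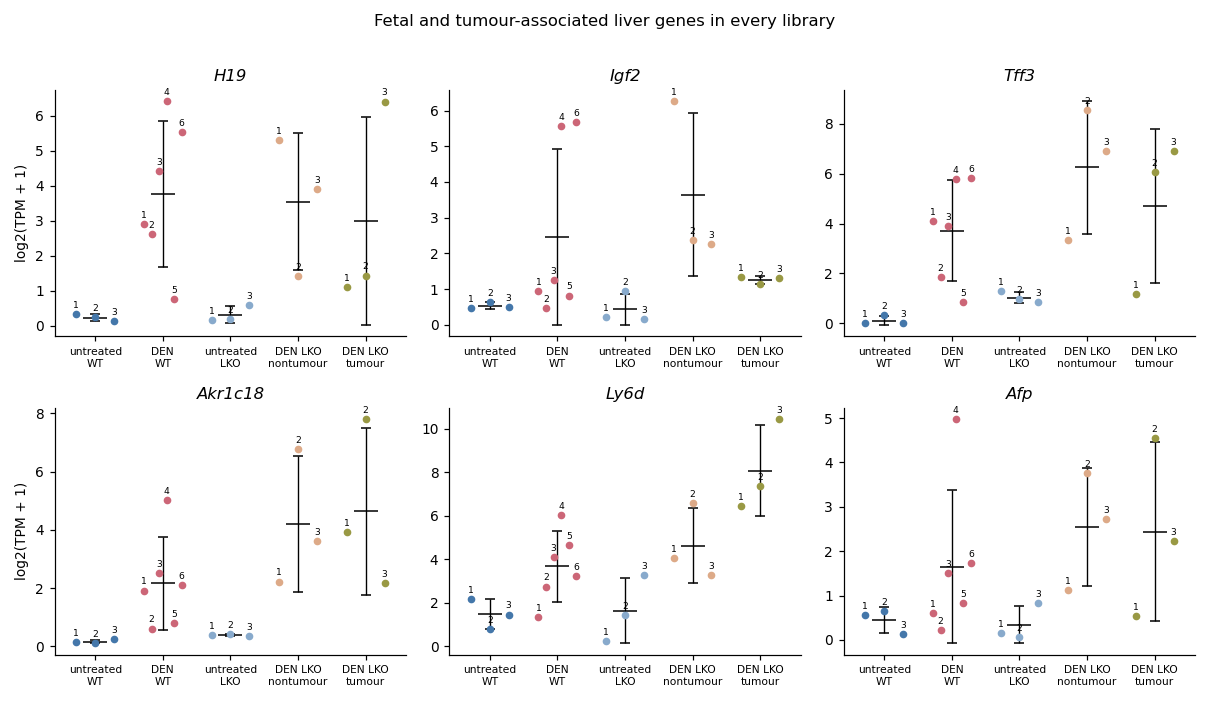
Levels of 6 genes as log2(TPM + 1) on the vertical axis in each library of the 5 groups, with replicate numbers beside the points, horizontal bars for means and whiskers for 1 SD. DEN WT 4 and 6 hold the highest H19, Igf2 and Tff3 of their group, while all 3 untreated WT libraries stay at or under 0.56 TPM for these genes.

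Of the 20 genes on the oncofetal list, 13 were tested and none passed. Of the 4 members that reached 1 TPM in both groups, Ly6d alone was higher at an unadjusted p under 0.05, against 0.567% of all genes. Members that entered through DEN WT alone were left out of this count, because the filter kept them through their DEN WT levels. The signs were positive for 12 of the 13, but 9 of them entered the test through DEN WT alone, and 98.5% of all genes that did so had a positive sign. Of the other 4, 3 were positive and 1, Prom1, was negative (median 0.56). Over all 20 listed genes, 18 had a higher and 2 a lower mean in DEN WT, with a median of 0.60. The summed TPM of the list was 33.6, 22.1, 74.2, 340, 46.8 and 180 in DEN WT 1 to 6, and 14.8, 7.76 and 7.89 in untreated WT 1 to 3. The summed level thus lay above the controls in all 6 DEN WT libraries, by little in DEN WT 2 and by most in DEN WT 4. The low-Ftcd libraries DEN WT 1 and 2 had the lowest sums of their group. The median of the 13 tested members was 0.97. Relative to the median of all genes it was 1.16 without the 3 low-Ftcd libraries and 0.63 without DEN WT 4. Both values include the 9 members that entered through DEN WT alone, so they do not test how stable the list is. No such values are given for the other 4.

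Macrophage transcripts lay higher in DEN WT. Marco (chromosome 1, 120474538 to 120505024, minus strand), a scavenger receptor of Kupffer cells that binds bacteria, ranged from 6.32 to 20.99 TPM in DEN WT with a median of 8.16. It was 4.58, 2.3 and 0.49 TPM in untreated WT, so every DEN WT library lay above every control, DEN WT 5 most of all. The difference was 1.81 ± 0.49 (unadjusted p = 0.00345), and leaving out 1 library at a time moved it between 1.30 and 2.26. Outside the macrophage list, Lgals3, galectin-3 of activated macrophages, also showed no overlap, at 9.84 to 16.06 TPM against 6.27, 8.75 and 5.72 TPM (0.78 ± 0.31). Slc29a3, a nucleoside transporter of lysosomes and also outside that list, was 3.23 to 7.89 TPM against 2.24, 0.92 and 1.37 TPM, again without overlap (1.24 ± 0.35, unadjusted p = 0.00428). Lgals3 and Slc29a3 were named for their lack of overlap in these data, not as macrophage markers. In LKO nontumour liver after DEN, Lgals3 differed by 2.28 ± 0.74 and Slc29a3 by -0.27 ± 0.66.

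The remaining macrophage genes overlapped between the groups. Vsig4, a complement receptor of Kupffer cells, had a median of 20.1 TPM (11.32 to 49.8) against 17.34, 7.72 and 4.5 TPM, and Cd5l, a secreted protein of tissue macrophages, had 34 TPM (19.61 to 128.31) against 31.31, 12.47 and 5.1 TPM. In both, untreated WT 1 reached into the DEN WT range, while untreated WT 3 was lowest. The receptor Cd14 and the complement subunit C1qa gave differences of 1.24 ± 0.54 and 0.92 ± 0.41. Clec4f, a lectin that marks resident Kupffer cells, differed by 0.57 ± 0.44 (unadjusted p = 0.22).

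All 19 tested genes of the Kupffer cell and macrophage list had a positive sign, against 50.3% of all genes. Their median was 0.73, 5 were higher at an unadjusted p under 0.05, against 0.567% of all genes, and 0 passed. Of the 19, 18 reached 1 TPM in both groups, and the 3 untested members also had higher means in DEN WT. Their summed TPM was 219, 508, 519, 388, 683 and 902 in DEN WT and 425, 258 and 149 in untreated WT, so DEN WT 1 and 4 fell within the control range. All 19 signs were also positive without the 3 low-Ftcd libraries, where the median relative to all genes was 0.61, and that median lay between 0.59 and 0.85 when single libraries were left out. In whole tissue, more macrophages and more RNA per macrophage cannot be told apart.

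**Figure D3:**
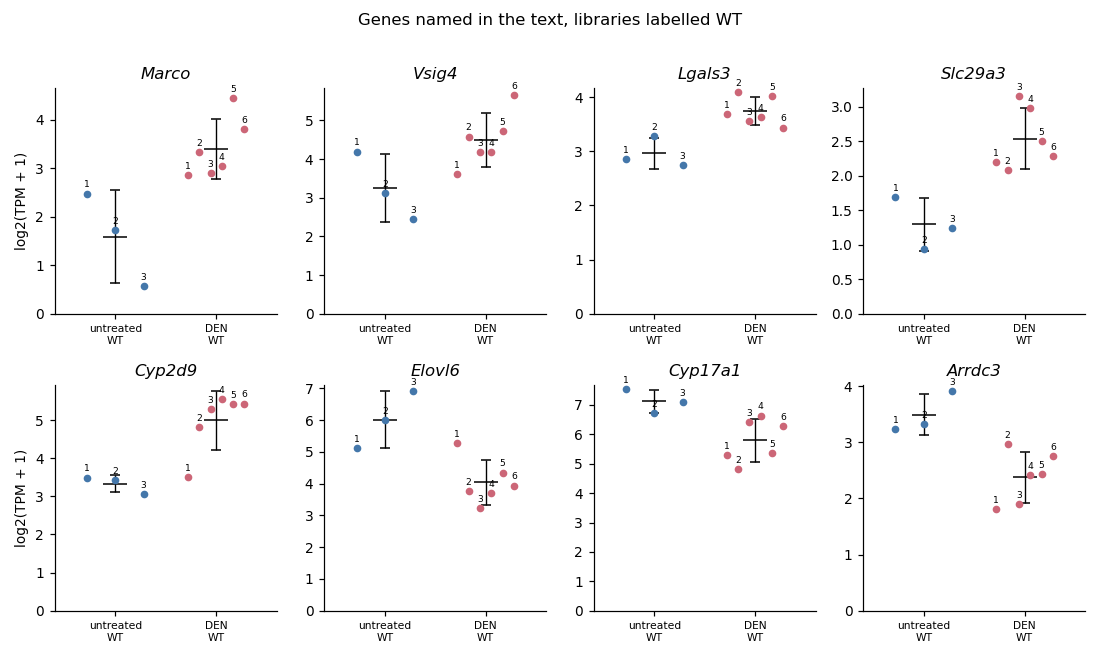
Levels of 8 genes as log2(TPM + 1) on the vertical axis in untreated WT (n = 3) and DEN WT (n = 6), with replicate numbers beside the points, bars for means and whiskers for 1 SD. Marco, Lgals3, Slc29a3 and Cyp2d9 lay higher and Cyp17a1 and Arrdc3 lower in all DEN WT libraries, while Vsig4 and Elovl6 overlapped.

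Lymphocyte transcripts were uneven. The 10 tested T and NK cell genes all had positive signs (median 0.50) and the 6 tested MHC class II genes did too (median 0.74), and 13 of 14 B and plasma cell genes were positive (median 0.86). Of these genes 1, on the T and NK cell list, entered the test through DEN WT alone. No member of these lists passed or had an unadjusted p under 0.05. DEN WT 5 carried much of this: its summed B and plasma cell TPM was 2606 against 140 to 943 in the other DEN WT libraries and 301 to 453 in untreated WT. Relative to all genes, the B and plasma cell median was 0.26 and the T and NK cell median 0.24 without that library. The MHC class II median was 0.41 without untreated WT 3 and 1.20 without untreated WT 2. The MHC class II sum was 919 TPM in DEN WT 5, against 147 to 387 in the other 5 and 66.4 to 238 in untreated WT. Cd74, the invariant chain of MHC class II, followed it at 425.04 TPM in DEN WT 5 (group median 147, against 99.13, 80.79 and 21.95 TPM in untreated WT; 1.33 ± 0.64). The heavy chain of IgA, Igha, was high in another set of libraries, at 88.91 TPM in DEN WT 1, 82.66 in DEN WT 4 and 63.16 in DEN WT 5, against 6.88 to 13.37 TPM in untreated WT (1.66 ± 0.78). Stellate cell and matrix genes that reached 1 TPM in both groups were positive in 20 of 21 (median 0.42), with Col1a1, the main chain of fibrillar collagen, at 0.22 to 2.31 TPM against 0.41 to 1.1 TPM. The summed TPM of the whole list was 143 to 435 in DEN WT and 219, 467 and 220 in untreated WT 1 to 3. Untreated WT 2 thus exceeded every DEN WT library in that sum.

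Globin transcripts were also higher. Hba-a1, an alpha globin, was 346.46 to 865.73 TPM in DEN WT and 297.14, 270.04 and 258.34 TPM in untreated WT, without overlap (1.00 ± 0.38, unadjusted p = 0.0242). Its near-identical copy Hba-a2 was 480.89 to 1751 TPM against 695.54, 306.75 and 334.71 TPM (1.03 ± 0.49), and how reads were split between the copies is uncertain. The 5 red cell genes that reached 1 TPM in both groups all had positive signs, with a median of 1.03. They include Alas2, the first enzyme of heme synthesis in red cell precursors, at 0.44 ± 0.31. The summed TPM of the list was 1066 to 3849 in DEN WT and 1594, 712 and 706 in untreated WT 1 to 3, so untreated WT 1 lay within the DEN WT range.

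Genes of fatty acid synthesis lay lower in DEN WT. Elovl6 (chromosome 3, 129532355 to 129638495, plus strand), the elongase that makes stearate from palmitate, was 8.39 to 37.77 TPM in DEN WT with a median of 13.4, against 33.77, 63.15 and 119.04 TPM in untreated WT. Only DEN WT 1 exceeded the lowest control, and the difference was -1.97 ± 0.51 (95% interval -3.09 to -0.84, unadjusted p = 0.00271). Scd1, the desaturase that acts on the products, was 277.29 to 793.09 TPM against 1184.27, 466.47 and 2364.04 TPM (-1.05 ± 0.54), with untreated WT 2 inside the DEN WT range. The fatty acid synthase Fasn (-0.83 ± 0.76) and ATP citrate lyase Acly (-0.66 ± 0.56), which supplies acetyl-CoA, overlapped broadly.

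All 18 genes of the list controlled by SREBP1, the transcription factor of fatty acid synthesis, had a negative sign, against 49.7% of all genes. Their median was -0.48 and none passed. At an unadjusted p under 0.05, 1 gene was lower, against 0.267% of all genes. The control libraries were far apart. Untreated WT 1 and 3 had summed TPM of 4834 and 4589 and untreated WT 2 had 1639, while DEN WT ran from 1353 to 3202. Relative to all genes, the median was -0.35 when untreated WT 1 was left out and -0.88 when untreated WT 2 was. Leaving out the 3 low-Ftcd libraries gave -0.25. With libraries weighted by their fit to the rest it was 0.06, so the direction turned there. Without the 3 low-Ftcd libraries 6 of the 18 signs were positive and 12 negative, and without untreated WT 1 the counts were 7 and 11. These signs are not relative to all genes, whose median was 0.16 and 0.20 in those settings. Cholesterol synthesis genes controlled by SREBP2 were negative in 24 of 26 (median -0.31). Relative to all genes that median was -0.19 without the 3 low-Ftcd libraries, -0.12 without untreated WT 1 and 0.04 with weighted libraries. Without untreated WT 1, 17 of the SREBP2 signs were positive and 9 negative. Cidec, a protein that enlarges lipid droplets, lay the other way, at 4.25 to 8.19 TPM against 2.92, 3.73 and 2.95 TPM without overlap (0.75 ± 0.30), and the lipid droplet list had 12 positive and 5 negative signs (median 0.19, with 1 gene tested through DEN WT alone). Relative to all genes that median was 0.36 without the 3 low-Ftcd libraries and 0.10 without untreated WT 2.

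Several sex-biased genes separated the groups although all 9 libraries were XX. Male and female mouse livers differ in many P450 and urinary protein genes through the pattern of growth hormone release. Cyp2d9, a P450 that is higher in males, was 10.37 TPM in DEN WT 1 and 27.29 to 45.78 TPM in the other DEN WT libraries, against 10.28, 9.85 and 7.41 TPM in untreated WT (1.67 ± 0.47, unadjusted p = 0.00433). Without DEN WT 1, which barely cleared the controls, the difference was 1.97. Cyp2d9 has close relatives in the genome, and reads shared with them could move between genes. Cyp17a1 (chromosome 19, 46667165 to 46673172, minus strand), a steroid hydroxylase, was 27.38 to 98.69 TPM in DEN WT and 183.95, 104.5 and 136.57 TPM in untreated WT, without overlap (-1.31 ± 0.47, unadjusted p = 0.0175). Cux2, a transcription factor of female liver, was 2.24 to 6.43 TPM against 8.19, 7.17 and 6.63 TPM, also without overlap (-0.67 ± 0.33, unadjusted p = 0.0652).

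The 28 female-biased genes had 25 negative signs (median -0.38) and the 19 tested male-biased genes 14 positive ones (median 0.34), with 0 passing in either list. Untreated WT 1 weighed heavily on the former, with a summed TPM of 12230 against 5297 and 3440 in the other 2 controls and 1328 to 7119 in DEN WT. Relative to all genes the female-biased median was -0.20 without it. The male-biased median turned to -0.11 without untreated WT 3. The Mup genes were not uniform: Mup20, which encodes the urinary pheromone darcin, gave 1.67 ± 0.81, whereas Mup1 gave -0.71 ± 1.13.

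Other genes whose libraries did not overlap, and whose higher group averaged at least 5 TPM, had varied roles. Cnbd2, a gene with a cyclic nucleotide binding domain, was 9.28 to 21.87 TPM in DEN WT against 7.49, 0.96 and 5.29 TPM (1.69 ± 0.48). The tyrosine phosphatase Ptpn18 was 6.77 to 24.13 TPM against 5.79, 3 and 3.77 TPM (1.11 ± 0.42), with DEN WT 5 far above the rest. Tmem86a, an enzyme that breaks down lysoplasmalogens, was 4.86 to 7.06 TPM against 3.18, 3.77 and 2.71 TPM (0.78 ± 0.28). In the lower direction, Arrdc3, an arrestin-like regulator of receptor trafficking, was 2.5 to 6.84 TPM against 8.4, 9.07 and 14.04 TPM (-1.11 ± 0.36, unadjusted p = 0.00986). Efna1, an ephrin ligand, was 9 to 24.98 TPM against 25.27, 35.37 and 31.36 TPM (-0.89 ± 0.39), and Gckr, the inhibitor of glucokinase, was 61.06 to 82.58 TPM against 92.81, 97.79 and 96.98 TPM (-0.38 ± 0.31). The other 6 lower genes were Tmem25, Shroom1, the histone gene H2bc4, Ecsit, Haao and Erp44, with differences between -0.79 and -0.29.

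Heat shock genes were negative in 18 of 20 (median -0.28), against 49.7% of all genes. Of them, 2 were lower at an unadjusted p under 0.05, against 0.267% of all genes. Hsp90aa1, the inducible Hsp90, was 17.16 to 47.81 TPM against 42.28, 74.82 and 56.61 TPM (-1.05 ± 0.42), with DEN WT 1 and 6 inside the control range. Hspa1a, an inducible Hsp70 with a near-identical neighbour, was 0.13 to 0.38 TPM in 5 DEN WT libraries and 3.5 TPM in DEN WT 5, against 1.52, 4.61 and 11.49 TPM (-1.90 ± 0.56). Relative to all genes the heat shock median was -0.06 without untreated WT 1 and -0.53 without untreated WT 3. Acute phase genes varied more within the groups than between them: the serum amyloid Saa1 ran from 4.51 to 2888 TPM in DEN WT and was 204.21, 60.22 and 4.76 TPM in untreated WT (2.12 ± 1.95). Lcn2, an iron-binding acute phase protein, was 931.93 TPM in DEN WT 3 and 877.42 in DEN WT 6 but 5.98 TPM in DEN WT 1 and 9.47 in DEN WT 5. The acute phase list was positive in 22 of 26 (median 0.43), and its median relative to all genes was 0.06 without untreated WT 3.

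Genes of the DNA damage response were split in direction a year after DEN. Of 20 tested p53 targets, 12 were positive and 8 negative (median 0.06), 1 of them, Phlda3, tested through DEN WT alone, and none had an unadjusted p under 0.05. Cdkn1a, the p53 target that blocks the cell cycle, was 16.13 TPM in DEN WT 3, 22.51 in DEN WT 6 and 6.8 in DEN WT 4 but 0.74 to 1.33 TPM in the other 3, against 2, 0.73 and 1.3 TPM (1.22 ± 0.85). Mdm2, which degrades p53, differed by 0.02 ± 0.44 (95% interval -0.95 to 0.99), and Phlda3, a p53-induced inhibitor of Akt, was 1.04 to 3.45 TPM against 0.99, 0.93 and 0.63 TPM (0.69 ± 0.31). Of 21 DNA repair genes 13 were positive (median 0.04), with Mgmt, which removes alkyl groups from guanine, at -0.39 ± 0.39. NRF2 antioxidant targets had a median of -0.03, with the quinone reductase Nqo1 at 0.13 ± 0.46. Of the 30 cell division genes 11 were tested. Mki67 reached 0.47 TPM and Top2a 1.56 TPM at most in DEN WT, both under the filter, while the thymidylate synthase Tyms was 2.40 to 11.97 TPM against 1.52 to 9.35 TPM (0.50 ± 0.52). Of the 10 that reached 1 TPM in both groups, 9 were positive (median 0.21), and relative to all genes the median of the 11 was 0.06 without untreated WT 3 and 0.40 without untreated WT 1. Over all 30, 29 had a higher and 1 a lower mean in DEN WT (median 0.18), and the 19 untested ones reached 2.60 TPM at most. The summed TPM of all 30 was 18.7 to 98.4 in DEN WT and 94.8, 31.9 and 23.8 in untreated WT 1 to 3.

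Lists of hepatocyte functions had small medians whose direction was not stable. The hepatocyte identity list had a median of 0.08 (14 positive, 12 negative), periportal genes 0.06, pericentral genes -0.15, PPARa targets of fatty acid oxidation 0.06 and folate one-carbon genes -0.08. Without untreated WT 3 the medians relative to all genes were -0.13 for hepatocyte identity, -0.38 for pericentral genes and -0.14 for PPARa targets. Without the 3 low-Ftcd libraries that of PPARa targets was 0.20, of periportal genes 0.17 and of folate genes 0.14. Cyp2e1 was 427.49 to 7472 TPM in DEN WT and 5917, 3234 and 683.79 TPM in untreated WT (0.42 ± 0.98), lowest in the low-Ftcd libraries of each group. Glul, the glutamine synthetase of hepatocytes next to the central vein and a gene that rises in tumours with active beta-catenin, was 114.2 to 638.87 TPM against 449.67, 297.56 and 154.42 TPM (0.17 ± 0.59). These intervals are wide: that of Cyp2e1 ran from -1.73 to 2.58.

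The 6 DEN WT libraries spread as widely among themselves as from the controls. Pearson correlations of log2(TPM + 1) were 0.719 to 0.950 within DEN WT, 0.853 to 0.944 within untreated WT and 0.747 to 0.955 between the groups, given as a description over the genes tested. The first principal component held 57.6% of the variance and ran from -111.12 in DEN WT 1 to 87.17 in DEN WT 6, with the controls at 67.15, -35.37 and -55.80 in between. Libraries with a high mitochondrial share, DEN WT 1 at 38.8% and untreated WT 3 at 23.2%, lay at the low end, and all 3 low-Ftcd libraries scored -49.83 or lower. What separates the libraries along this axis was not tested. The 8 abundant genes with the largest spread within DEN WT were 7 copies of the 5S ribosomal RNA gene and 1 short RNA, listed at 0 TPM in DEN WT 3, 4 and 5 and highest in DEN WT 2. The 5S copies are near-identical, and the share of reads given to each is uncertain.

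**Figure D4:**
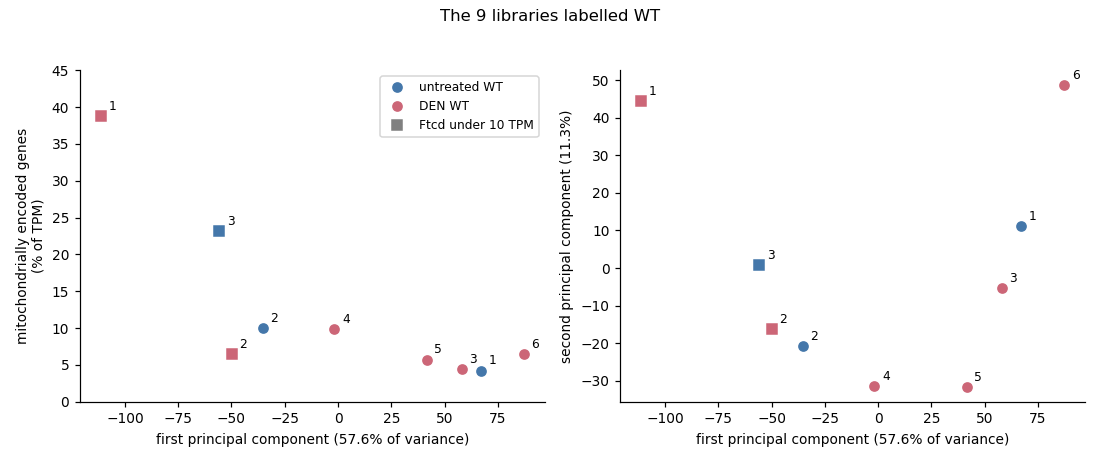
The 9 libraries by their score on the first principal component (horizontal axes) against the percent of TPM from mitochondrially encoded genes (left) and the second component, 11.3% of variance (right), with replicate numbers beside the points. Squares are libraries labelled WT with Ftcd under 10 TPM. DEN WT and untreated WT are intermixed on both components.

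The same DEN schedule in mice labelled LKO gave a second set of values for these genes, from untreated and DEN libraries that are not shared with the WT comparison. The difference between the DEN effects passed for no gene (0% of 11989; interaction in a limma fit of all 18 libraries), with 238 at an unadjusted p under 0.05 (1.99%). In LKO nontumour liver 1 gene passed (0.00834%), the female-biased P450 Cyp2a4 (7.60 ± 1.02, adjusted p = 0.00847; limma), which in WT gave -0.42 ± 0.60. The untreated LKO libraries were XY, and of the DEN LKO nontumour libraries number 1 was XX and numbers 2 and 3 were XY. The part of sex in the LKO values was not tested. Over all tested genes the LKO difference was above 0 in 59.8% and below 0 in 39.8%, and 4.4% were higher and 0.659% lower at an unadjusted p under 0.05. The interaction was above 0 in 41.7% and below 0 in 58.3% of genes. All 28 female-biased genes were positive in LKO (median 1.5) and all 19 male-biased genes negative (median -1.84). Cyp17a1 gave 2.78 ± 0.63 in LKO against -1.31 ± 0.47 in WT (interaction unadjusted p = 0.000107).

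H19, Tff3 and Akr1c18 had positive differences in LKO as well. The filter did not use the LKO libraries, but the genes and lists were chosen with earlier results of these data known. The LKO values are therefore a description and no independent check. H19 was 38.73, 1.69 and 14.03 TPM in DEN LKO nontumour 1 to 3 and 0.11, 0.14 and 0.5 TPM in untreated LKO, a difference of 3.24 ± 1.35 against 3.54 ± 1.02 in WT. Tff3 was 9.06, 371.32 and 118.95 TPM against 1.44, 0.94 and 0.8 TPM (5.23 ± 1.45), and Akr1c18 was 3.68, 108.94 and 11.18 TPM against 0.32, 0.33 and 0.29 TPM (3.81 ± 1.25). The WT minus LKO differences for these 3 genes were 0.30 ± 1.79, -1.63 ± 1.91 and -1.81 ± 1.65, errors that leave room for differences of several log2 units. Over the 13 tested oncofetal genes the LKO median was 2.20 with all signs positive, and Prom1, at -0.02 in WT, was 1.13 there. In the 3 LKO tumours H19 was 1.16, 1.7 and 83.88 TPM, all within the range of the DEN WT nontumour libraries. The macrophage list was also positive for all 19 genes in LKO (median 1.55), with Marco at 2.09 ± 0.72. Elovl6 differed in sign, at 1.22 ± 0.69 in LKO and -1.97 ± 0.51 in WT (interaction -3.19 ± 0.91, unadjusted p = 0.00251), and did not pass after adjustment.

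**Figure D5:**
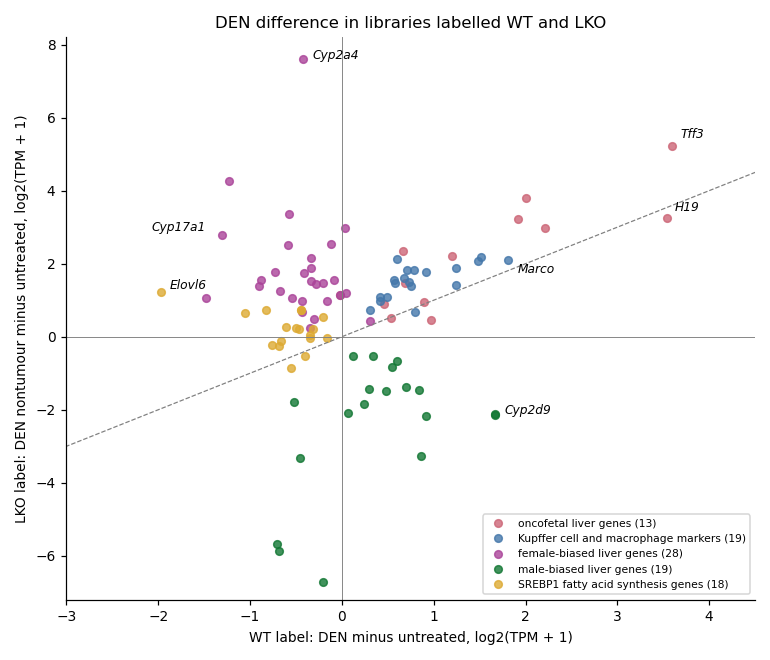
Each point is a tested gene of 5 lists, placed by its log2(TPM + 1) difference after DEN in libraries labelled WT (horizontal axis, 6 against 3) and labelled LKO (vertical axis, nontumour, 3 against 3). The dashed line marks equal differences. Macrophage genes and 12 of the 13 fetal genes lie in the upper right, while sex-biased genes spread along the vertical axis. Of the 13, 9 entered the test through DEN WT alone, which favours a positive horizontal value, and they are not marked here. Of the LKO libraries, 1 of the 3 DEN ones was XX and the untreated ones were XY, and the part of sex was not tested.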

How the data were processed

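RNA of 18 mouse liver libraries was extracted with TRIzol and made into libraries with a TruSeq kit, per the labels' protocols. The authors deposited TPM per gene and library, estimated with HISAT alignments and RSEM on mm10 after fastp, per the submitters' processing notes, with versions not given in the sources used here. The table held 58126 genes, each library summed to between 999999.1 and 1000000.8 TPM, and 94.9% of gene IDs were found in GENCODE M21, the source of coordinates. The authors' group means were not used.

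TPM are not counts, so limma 3.58.1 (R 4.3.3) with a trended prior was fitted to log2(TPM + 1) for the 9 WT libraries (7 residual degrees of freedom), with Benjamini-Hochberg adjustment over the 11989 tested genes and a threshold of 0.05. The difference between WT and LKO came from 1 fit of all 18 libraries as 5 group means. The script was tested on simulated data. Other values were computed with Python 3.11.15, numpy 2.4.6, pandas 2.3.3 and scipy 1.17.1, and figures with matplotlib 3.10.9.

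The genes, lists and tests were chosen with earlier results of these data known. Genes are named by rule: the 12 smallest p in each direction among non-overlapping genes with a regular symbol whose higher group averaged at least 5 TPM (17 higher and 11 lower genes met it), a set of 24 genes of interest, up to 4 genes with the smallest p per list, and the 8 most variable genes in DEN WT at 20 TPM or more. Alas2, Fasn, Cyp2a4, Mup1 and Prom1 were added after their values were seen. Alternatives covered the pseudocount, filters, scaling, weights, covariates and single libraries left out.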

Additional observations from a re-analysis of the deposited data

Results flagged for a closer look

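In 20 of 222 measures taken over the 6 DEN WT libraries, 1 library stood apart, meaning that its gap to the nearest other library exceeded 0.625 of the whole range (Dixon's limit for 6 values). That limit flags about 1 in 20 groups of independent, normally distributed values. The 222 measures share the same 6 libraries and many were named for their values there, so their count cannot be held against that rate. DEN WT 1 was the library that stood apart in 11 measures, DEN WT 5 in 7 and DEN WT 4 in 2. DEN WT 1 had the highest mitochondrial share of TPM, with a gap of 0.842 of the range, and the highest Zbtb46 (0.648). It had the lowest level of H2bc4 (0.831), Cyp1a2 (0.767), Gls2 (0.767), Sdf2l1 (0.717), Clec4f (0.683), Calr (0.651), Cyp2d9 (0.644), Cyp3a11 (0.639) and Ecsit (0.625). These include 2 drug-metabolising P450 enzymes, Cyp1a2 and Cyp3a11, and the chaperone Calr of the endoplasmic reticulum. DEN WT 5 had the highest Hspa1a (0.855), Lig1 (0.853), Cish (0.748), Phlda1 (0.743), Cd2 (0.737), Cd79b (0.69) and Ptpn18 (0.654). Among these are Cd2, of the T and NK cell list, and the B cell receptor subunit Cd79b. DEN WT 4 had the highest Afp (0.68) and Gpc3 (0.663).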

How the results depend on the processing

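Between DEN WT and untreated WT, 0 genes passed under most alternatives, including pseudocount 0.1, filters at 0 and 5 TPM, 2 other scalings and a mitochondrial covariate. With library weights 71 passed (33 higher, 38 lower), with weights from 0.169 for DEN WT 1 to 4.88 for untreated WT 2 and an estimate that stopped before it converged. Without the 3 low-Ftcd libraries 3 passed, all lower copies of 5S ribosomal RNA. Leaving out single libraries gave 0 to 2, namely 2 without DEN WT 2, 1 without DEN WT 3 (Rnu5g) and 1 without untreated WT 3. For the difference between WT and LKO, where the main count was 0, 2 genes passed with no filter (Dkk4 and Gm11457) and 1 each, Cyp2a4, with median-ratio scaling, quantile normalization, mitochondrial genes removed or the mitochondrial share as covariate. The count was 1 without the 3 low-Ftcd libraries, 1168 with library weights and 0 to 1 without single libraries (1 without DEN WT 2 and 1, Alas2, without DEN LKO nontumour 2). The difference in mitochondrial share, -0.513 percentage points, lay between -5.89 and 4.83 without single libraries; it turned to 0.584, 1, 0.733, 0.575 and 4.83 without DEN WT 2, 3, 5, 6 and untreated WT 3.

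Replicate numbers do not pair the samples: deviations of same-numbered libraries correlated at -0.65, 0.23 and -0.48. With the number as a replicate block 0 genes passed in either comparison (51 and 305 at an unadjusted p under 0.05, against 100 and 238), and the mitochondrial difference over numbers 1 to 3 was 4.09.

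The median log2 difference of all genes moved by over 0.1 with library weights (0.30), without the 3 low-Ftcd libraries (0.16), with the block (-0.25) and without untreated WT 1 (0.20), DEN WT 1 (0.14), DEN WT 6 (-0.11) or untreated WT 3 (-0.11). List medians were read against it. Of 219 genes, 155 had 1 sign under every alternative, among them Marco and Elovl6; 13 passed with library weights and none otherwise. Of 51 lists 18 had 1 sign throughout. The oncofetal median was 2.04 with a pseudocount of 0.1. With the 5 TPM filter it was 3.58, over fewer members. That filter kept H19 and Tff3 through their DEN WT levels alone and dropped Akr1c18, Igf2, Afp and Gpc3. The value of 3.58 thus describes a set chosen by its DEN WT levels and is no sign of a firmer difference. Depth is unknown, and 3 controls limit precision.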

Other observations

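Several genes were high in some DEN WT libraries and at or near 0 in the rest. Ddit3, a transcription factor of the stress response of the endoplasmic reticulum, was 56.17 TPM in DEN WT 1, 26.02 in DEN WT 2 and 123.65 in DEN WT 4 and was listed at 0 in the other 6 libraries of the comparison, controls included. The summed level of smooth and skeletal muscle genes was 176 TPM in DEN WT 2 and 48.5 TPM in DEN WT 3, against 5.85 to 18.8 TPM in the other 4 and 6.08 to 10 TPM in untreated WT.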
